A study of Mus musculus with 6 samples.

Results

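Stimulation with RANKL left 41 genes at less than 0.5 times their unstimulated level in fetal thymic stroma of both genotypes studied, and these 41 genes are described here. They were taken from the 22513 entries of the gene table by a rule on levels. A gene had at least 2 FPKM in both unstimulated libraries, and each RANKL library was below 0.5 times the unstimulated library of its genotype, which gives 4 ratios per gene. FPKM is the number of fragments per kilobase of exon, scaled to the mapped fragments of the library. Of the 10879 genes at 2 FPKM or more in both unstimulated libraries, the 41 make up 0.377%, while 154 (1.42%) were above 2 times the unstimulated level in all 4 ratios. Because the rule used the response to RANKL in every library, the lower level after RANKL is a description of how these genes were chosen and carries no test.

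RNA was sequenced from 6 libraries of thymic lobes of C57BL/6 mouse embryos, cultured as fetal thymus organ culture for 4 days with 2-deoxyguanosine (2-DG). RANKL, where given, was present for 4 days. The methods of the study do not state how long the unstimulated lobes were kept. Any difference in culture time cannot be told apart from RANKL. The unstimulated stroma gave 1 library from WT and 1 from Jmjd6-/- embryos, and 2 libraries per genotype came from stroma with RANKL. Every group had thus been treated with 2-DG, and Jmjd6-/- embryos lack the nuclear hydroxylase Jmjd6 in all tissues, not only in thymic epithelium. The sample labels call the repeated libraries technical duplicates, while the methods of the study describe them as samples. The p-values therefore measure only the spread between these libraries, which may be technical.

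RANKL is a cytokine of the tumour necrosis factor family. Its receptor RANK, encoded by Tnfrsf11a, signals through NF-κB and is known in the thymus for driving medullary thymic epithelial cells (mTECs) to mature and to express Aire, the regulator through which tissue-restricted antigens are displayed to developing T cells. 2-DG kills dividing lymphoid cells, and the stroma that stays behind is known to hold cortical and medullary epithelium, mesenchyme, vessels and macrophages. In such bulk samples fewer cells of a type and less RNA per cell cannot be told apart.

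The targeted gene and the stimulus could be read in every library. Jmjd6 had 25.9 to 32.5 FPKM in the 3 WT libraries and 1.32 to 1.96 FPKM in the 3 Jmjd6-/- libraries. Aire had 0.142, 78.0 and 79.7 FPKM in WT and 0.473, 75.1 and 67.1 FPKM in Jmjd6-/- stroma, where the first value of each genotype is the unstimulated library and the other 2 are RANKL replicates 1 and 2, the order kept from here on. Tnfrsf11a had 1.84, 14.9 and 12.6 FPKM in WT and 2.41, 16.1 and 13.7 FPKM in Jmjd6-/- stroma. The epithelial genes Foxn1 and Epcam were above 80 FPKM in all 6 libraries, and Cd3e, a T-cell gene, was at most 0.0345 FPKM. The estimated depth was 15400000 to 32300000 fragments per library. The 2 WT RANKL libraries differed from each other with base composition, with a median log2 difference of replicate 2 minus 1 from -0.36 in the tenth of genes lowest in GC to 0.26 in the tenth highest. Xist, the RNA of the inactive X chromosome, was 71.8 and 30.9 FPKM in the WT and 28.2 and 65.9 FPKM in the Jmjd6-/- RANKL libraries. These replicates were 1.21 apart on the log2 scale in WT, where the median gene was 0.26 apart, and 1.22 in Jmjd6-/- stroma, where the median gene was 0.07 apart. Whether the libraries repeat 1 RNA was not tested. Of the 41 genes, 30 were higher in WT RANKL replicate 2 than in replicate 1, and the share over all genes was not counted. Without replicate 2 the rule would take 62 genes, and a rule with 1 ratio fewer can only add genes.

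The sequences before the start sites are shown first, because they differ from those of most genes expressed in this stroma and the rule did not use them. Promoters from 250 bases before to 50 bases after the RefSeq start (GRCm38.p6, the assembly of mm10) were matched for 32 of the 41 genes and for 8681 of the 10879 genes at 2 FPKM or more. Most promoters of widely expressed genes are rich in the dinucleotide CpG, whereas many tissue-restricted genes have promoters poor in it. Here 20 of the 32 promoters (62.5%) had a CpG ratio, the observed over the expected number of CpG, under 0.4, against 11.0% of the 8681. The doubled genes lay between, with 45 of 117 promoters (38.5%). The median CpG ratio was 0.303 for the halved genes and 0.789 for all genes, and the median GC content was 51.5% and 61.3%. Promoters of 4 CpG-poor genes of the 2 groups described most fully, P450 enzymes and macrophage genes, are printed with that of Pcsk6, the richest in CpG of the 32. Each CpG is in capitals and the sequence reads 5′ to 3′.
Cyp2a5 (chr7:26835089-26835388, plus strand): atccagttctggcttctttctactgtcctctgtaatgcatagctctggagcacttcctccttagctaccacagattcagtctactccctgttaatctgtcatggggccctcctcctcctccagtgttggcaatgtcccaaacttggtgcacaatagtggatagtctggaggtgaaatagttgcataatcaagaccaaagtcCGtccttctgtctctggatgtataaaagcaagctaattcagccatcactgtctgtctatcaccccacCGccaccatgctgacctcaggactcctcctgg
Cyp2f2 (chr7:27119705-27120004, plus strand): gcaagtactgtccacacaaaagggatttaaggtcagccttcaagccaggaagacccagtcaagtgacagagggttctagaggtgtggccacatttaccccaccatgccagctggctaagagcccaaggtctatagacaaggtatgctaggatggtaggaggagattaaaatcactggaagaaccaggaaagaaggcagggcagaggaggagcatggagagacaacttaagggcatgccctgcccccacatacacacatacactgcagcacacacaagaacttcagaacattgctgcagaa
Timd4 (chr11:46810549-46810848, plus strand): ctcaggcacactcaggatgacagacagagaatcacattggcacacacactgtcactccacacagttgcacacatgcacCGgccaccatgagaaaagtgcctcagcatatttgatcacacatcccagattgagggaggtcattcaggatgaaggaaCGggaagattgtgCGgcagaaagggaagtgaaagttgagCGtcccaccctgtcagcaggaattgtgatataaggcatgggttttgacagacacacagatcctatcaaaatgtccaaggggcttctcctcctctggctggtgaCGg
Cd5l (chr3:87357631-87357930, plus strand): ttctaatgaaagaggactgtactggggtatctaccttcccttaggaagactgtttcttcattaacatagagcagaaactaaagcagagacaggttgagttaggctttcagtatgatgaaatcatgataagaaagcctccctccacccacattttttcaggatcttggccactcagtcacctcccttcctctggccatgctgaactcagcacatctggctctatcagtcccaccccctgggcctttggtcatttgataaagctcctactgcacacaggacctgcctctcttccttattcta
Pcsk6 (chr7:65861886-65862185, plus strand): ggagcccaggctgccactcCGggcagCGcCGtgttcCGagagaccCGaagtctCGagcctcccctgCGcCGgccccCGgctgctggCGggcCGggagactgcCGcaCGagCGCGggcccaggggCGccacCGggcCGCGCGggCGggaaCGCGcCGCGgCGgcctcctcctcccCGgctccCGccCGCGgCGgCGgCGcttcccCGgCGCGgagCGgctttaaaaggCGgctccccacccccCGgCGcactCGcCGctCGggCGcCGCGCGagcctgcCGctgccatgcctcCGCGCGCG

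In these windows Cyp2f2 and Cd5l held 0 CpG, Cyp2a5 held 2 and Timd4 held 5, against 52 in Pcsk6. Egf also held 0 CpG. Short motifs were counted on both strands in the same windows. The GC box GGGCGG, which contains a CpG and so is not independent of CpG content, was in 8 of 32 promoters (25.0%) against 67.7% of all genes and 56.4% of the doubled genes. The letters TATAAA of a TATA box were in 6 promoters (18.8%) against 6.55% of all and 17.9% of the doubled genes. The letters GAGGAA, the core bound by ETS factors of the PU.1 type, were in 13 (40.6%) against 26.1% and 26.5%. The AP-1 motif TGACTCA was in 1 promoter (3.12%) against 3.01%, and the E-box CACGTG was in 3 (9.38%) against 10.5%. The kappa B consensus was in 0 of 32 promoters, against 4.88% of all and 9.40% of the doubled genes. These are shares of letters in a short window, and no test was made of them.

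Across the set, the median log2 change of the mean of the RANKL libraries over the unstimulated library, with 0.1 FPKM added, was -1.47 in WT and -1.42 in Jmjd6-/- stroma. Over all genes at 2 FPKM or more it was -0.09 and -0.04. As ratios of FPKM, the genes were lower by 2.14-fold to 6.94-fold in WT and by 2.01-fold to 12.9-fold in Jmjd6-/- stroma, with medians of 2.87-fold and 2.81-fold. Most were lowly expressed. The mean of the 2 unstimulated values was under 10 FPKM in 25 genes, between 10 and 100 FPKM in 14, and above 100 FPKM in Sepp1 and Enpep. The median unstimulated level was 7.18 FPKM in WT and 6.60 FPKM in Jmjd6-/- stroma, against 15.9 and 15.7 FPKM over all genes at 2 FPKM or more. By the estimated depth a gene of the set had a median of 415 fragments unstimulated and 140 with RANKL, and 7 of the 164 RANKL values rested on 10 fragments or fewer.

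**Figure D1:**
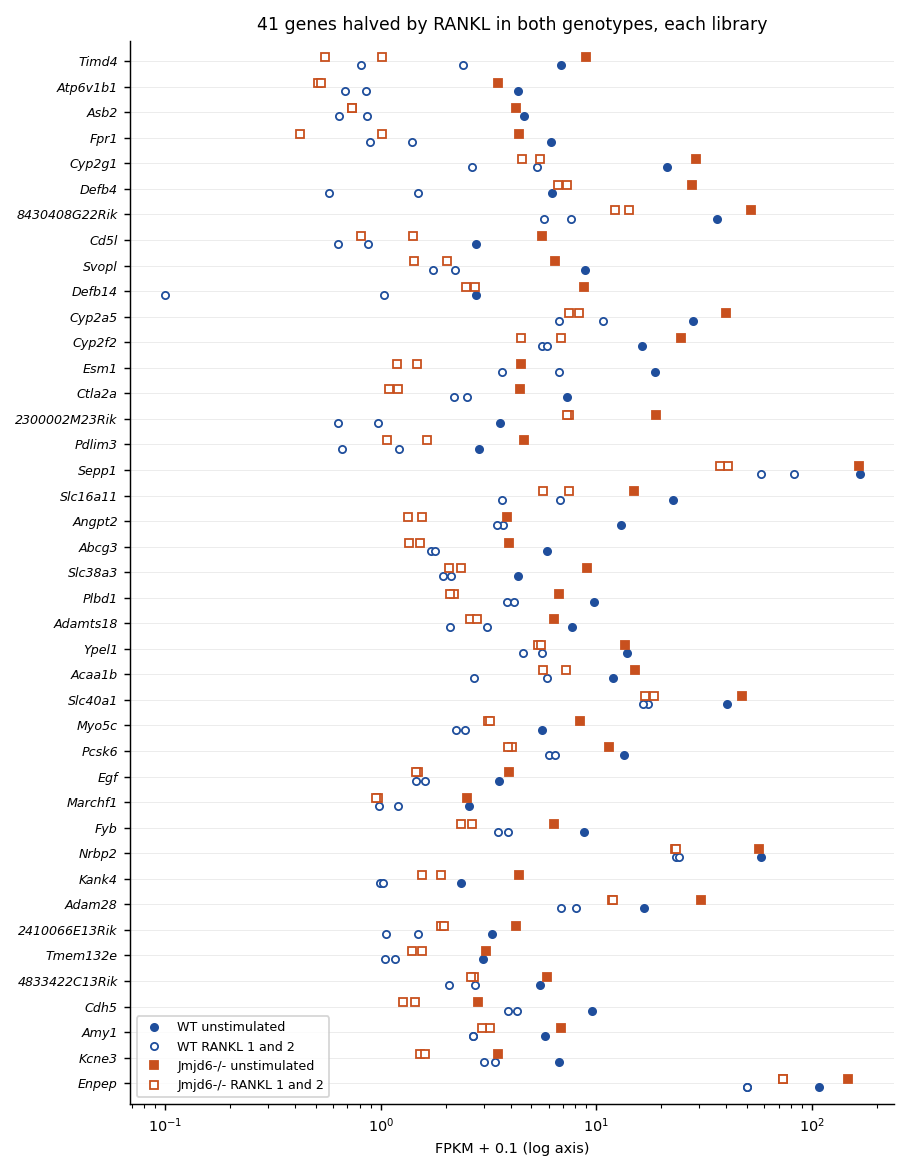
Level of each of the 41 halved genes (rows, ordered by the size of the fall) in each of the 6 libraries, as FPKM with 0.1 added on a log axis. Filled symbols are unstimulated libraries and open symbols are RANKL replicates 1 and 2, with circles for WT and squares for Jmjd6-/- stroma. In every row the open symbols of a genotype lie to the left of its filled symbol, as the rule requires, and Defb14 at 0 in WT RANKL replicate 1 is the leftmost point.

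Genes known from tissue macrophages included the gene with the largest fall. Timd4 (XLOC_002427, chromosome 11, 46810799 to 46844333) encodes TIM-4, a receptor for phosphatidylserine by which resident macrophages take up dying cells. It had 6.78 FPKM in unstimulated WT stroma and 0.714 and 2.32 FPKM after RANKL, and 8.82 FPKM in unstimulated Jmjd6-/- stroma and 0.913 and 0.450 FPKM after RANKL. This was 4.47-fold lower in WT and 12.9-fold lower in Jmjd6-/- stroma, and WT RANKL replicate 2 was the highest of the 4 RANKL libraries. Cd5l (XLOC_012324, chromosome 3, 87357881 to 87371074) encodes AIM, a scavenger protein secreted by tissue macrophages, and had 2.66, 0.536 and 0.776 FPKM in WT and 5.53, 1.32 and 0.709 FPKM in Jmjd6-/- stroma. Slc40a1 (XLOC_000726, chromosome 1, 45908070 to 45925594) encodes ferroportin, which exports iron from macrophages that have taken up red cells. It was among the most abundant genes of the set and had 40.4, 17.2 and 16.4 FPKM in WT and 47.1, 18.4 and 16.8 FPKM in Jmjd6-/- stroma. The RANKL libraries of Slc40a1 spanned only 16.4 to 18.4 FPKM over both genotypes, and it left the set when the GC trend of each library was removed.

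These 3 genes were the only halved ones among the 21 genes at 2 FPKM or more of a list of 30 resident macrophage markers, a share of 14.3% against 0.377% of all genes. The list as a whole did not follow them. Its median log2 change was -0.20 in WT and -0.28 in Jmjd6-/- stroma, 8 of the 21 genes were lower in all 4 ratios (38.1%, against 35.4% of all genes) and 5 were higher. The summed level of the list was 1067, 894 and 1162 FPKM in WT and 989, 841 and 897 FPKM in Jmjd6-/- stroma. Lyz2, encoding lysozyme, had 323, 346 and 336 FPKM in WT and 289.8, 285 and 323 FPKM in Jmjd6-/- stroma. C1qa, encoding a chain of complement C1q, had 97.8, 78.7 and 142 FPKM in WT and 93.1, 89.4 and 95.9 FPKM in Jmjd6-/- stroma. Mrc1, the mannose receptor of macrophages, was above 2 times its unstimulated level in all 4 ratios, at 4.93, 15.3 and 15.8 FPKM in WT and 4.50, 11.9 and 10.8 FPKM in Jmjd6-/- stroma. Spic, the transcription factor of iron-recycling macrophages that controls Slc40a1, had 3.52, 1.17 and 2.30 FPKM in WT and 4.42, 1.53 and 1.71 FPKM in Jmjd6-/- stroma and missed the rule in WT RANKL replicate 2 only. Marco, another scavenger receptor, was below 2 FPKM in WT and had 1.07, 0.464 and 0.423 FPKM in WT and 2.19, 0.324 and 0.755 FPKM in Jmjd6-/- stroma. Cd163, Lyve1 and Vsig4, also on the list, were at most 0.223 FPKM in every library. Csf1r, the growth factor receptor that macrophages need, had 13.7, 7.58 and 10.3 FPKM in WT and 14.8, 8.86 and 10.5 FPKM in Jmjd6-/- stroma, and the pan-leukocyte gene Ptprc (CD45) had 6.81, 3.41 and 3.53 FPKM in WT and 6.74, 2.89 and 3.56 FPKM in Jmjd6-/- stroma. Their part in the levels of Timd4, Cd5l and Slc40a1 was not tested. Marco, Spic, Lyz2, C1qa, Mrc1, Cd163, Lyve1 and Vsig4 were picked from the list after their values were seen.

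**Figure D2:**
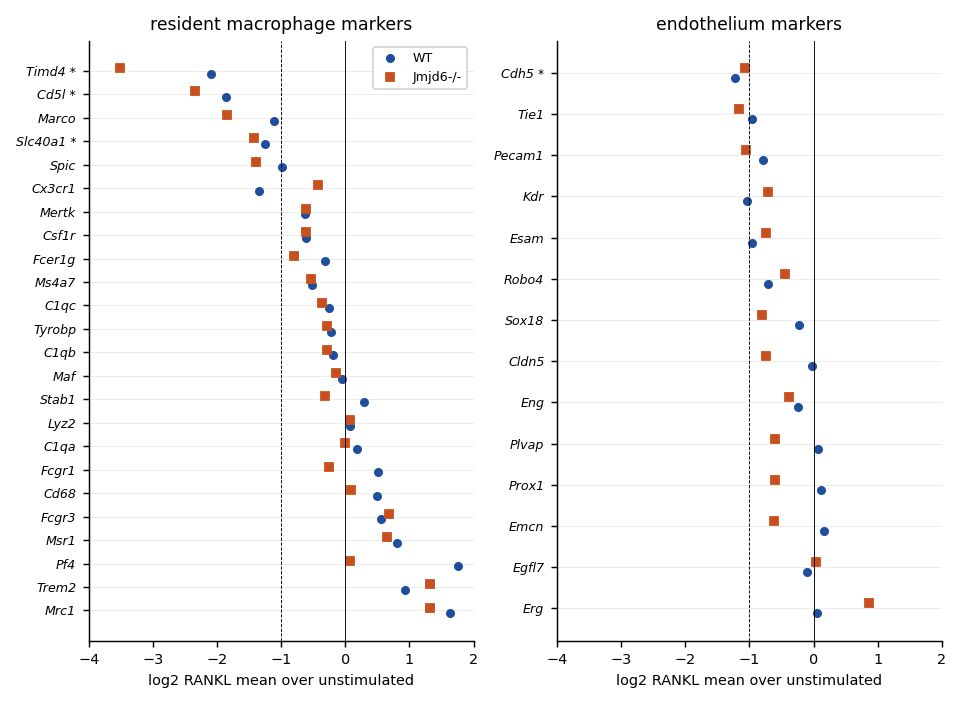
Log2 of the mean RANKL level over the unstimulated level (0.1 FPKM added) for genes of the resident macrophage and endothelium lists with at least 1 FPKM in an unstimulated library. Circles are WT and squares Jmjd6-/- stroma, the dashed line marks a change of 2-fold downward, and asterisks mark halved genes. Timd4 and Cd5l stand at the top of the macrophage list, followed by Marco, which is not in the set, and Slc40a1, while Trem2 and Mrc1 at its foot lie to the right of 0.

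Other members known from leukocytes were Fpr1, Plbd1, Fyb, Marchf1 and Asb2. Fpr1 (XLOC_008501, chromosome 17, 17876471 to 17883939) encodes a receptor for formylated bacterial peptides and had 6.05, 1.29 and 0.788 FPKM in WT and 4.29, 0.321 and 0.912 FPKM in Jmjd6-/- stroma. Its neighbour in function Fpr2 had 2.05, 0.555 and 0.479 FPKM in WT and 1.99, 0.362 and 0.481 FPKM in Jmjd6-/- stroma and was left out by the rule because the unstimulated Jmjd6-/- level was under 2 FPKM. Fpr1 was the only 1 of 20 listed neutrophil and monocyte markers at 2 FPKM or more in both unstimulated libraries. The summed level of that list was higher with RANKL, at 16.6, 125 and 193 FPKM in WT and 24.4, 94.9 and 107 FPKM in Jmjd6-/- stroma. Most of this sum was S100a8, a gene that activated epithelium also expresses, with 0.586, 98.2 and 141 FPKM in WT and 0.268, 58.5 and 65.5 FPKM in Jmjd6-/- stroma.

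Asb2 (XLOC_004604, chromosome 12, 103321142 to 103356001) encodes the substrate-binding part of a ubiquitin ligase that degrades filamins in blood cells. It had 4.52 FPKM in unstimulated WT stroma and 0.542 and 0.761 FPKM after RANKL, and 4.12 FPKM in unstimulated Jmjd6-/- stroma and 0.635 and 0.633 FPKM after RANKL. This was the largest fall in WT stroma, and the gene was 6.94-fold lower in WT and 6.51-fold lower in Jmjd6-/- stroma, with the 4 RANKL values between 0.542 and 0.761 FPKM. Marchf1, a ubiquitin ligase that turns over MHC class II and CD86, had 2.47, 0.883 and 1.11 FPKM in WT and 2.41, 0.870 and 0.850 FPKM in Jmjd6-/- stroma. Fyb, an adaptor protein of T-cell and myeloid signalling, had 8.70, 3.38 and 3.77 FPKM in WT and 6.26, 2.55 and 2.25 FPKM in Jmjd6-/- stroma. Plbd1, a phospholipase B-like protein of myeloid granules, had 9.65, 3.76 and 4.07 FPKM in WT and 6.60, 2.09 and 1.99 FPKM in Jmjd6-/- stroma. In these last 3 genes the RANKL libraries of WT and Jmjd6-/- stroma did not overlap, with Jmjd6-/- lower, as in 18.3% of the 10879 genes. In the limma test described below, their adjusted p was 0.743 in Marchf1, 0.176 in Fyb and 0.0607 in Plbd1, so no call was made.

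A group of 3 genes known from blood vessels was halved at different starting levels in the genotypes. Esm1 encodes endocan, a proteoglycan of endothelial tip cells, and had 18.6, 3.54 and 6.64 FPKM in WT and 4.37, 1.37 and 1.09 FPKM in Jmjd6-/- stroma. Angpt2 encodes angiopoietin-2, an endothelial ligand that antagonises the receptor Tie2, and had 12.9, 3.59 and 3.36 FPKM in WT and 3.75, 1.45 and 1.23 FPKM in Jmjd6-/- stroma. Cdh5 encodes VE-cadherin, which joins endothelial cells to each other, and had 9.48, 3.78 and 4.20 FPKM in WT and 2.72, 1.34 and 1.16 FPKM in Jmjd6-/- stroma. All 3 were lower in Jmjd6-/- than in WT stroma both before and after RANKL. In each gene the unstimulated Jmjd6-/- level was below or within 1 FPKM of the higher WT level reached with RANKL. Angpt1, the agonist ligand of Tie2, was not halved and had 7.29, 6.51 and 6.34 FPKM in WT and 5.47, 5.37 and 5.15 FPKM in Jmjd6-/- stroma. Angpt2 lies within an intron of Mcph1 and shares its locus entry, and Mcph1 had 2.82, 3.42 and 2.31 FPKM in WT and 2.72, 2.36 and 3.05 FPKM in Jmjd6-/- stroma.

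Of 20 endothelial markers 6 were at 2 FPKM or more, and of these Cdh5 (16.7%, against 0.377% of all genes) was halved. The median log2 change of the 6 was -0.51 in WT and -0.74 in Jmjd6-/- stroma. Of the 6, 4 were lower in all 4 ratios (66.7%, against 35.4% of all genes). Pecam1 (CD31) had 7.71, 4.05 and 4.83 FPKM in WT and 2.72, 1.39 and 1.13 FPKM in Jmjd6-/- stroma. Egfl7 and Cldn5 were not lower in every RANKL library. Egfl7 had 8.17, 5.54 and 9.70 FPKM in WT and 2.06, 1.89 and 2.37 FPKM in Jmjd6-/- stroma. Cldn5 had 4.96, 3.03 and 6.68 FPKM in WT and 2.08, 0.931 and 1.48 FPKM in Jmjd6-/- stroma. The summed level of the list was 57.7, 33.6 and 48.0 FPKM in WT and 24.6, 15.8 and 16.4 FPKM in Jmjd6-/- stroma. The part of the amount of endothelium in the values of Esm1, Angpt2 and Cdh5 was not tested. Pecam1, Egfl7 and Cldn5 were picked from the list after their values were seen.

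P450 enzymes encoded side by side on chromosome 7 formed the clearest gene family in the set. Cytochromes P450 of the Cyp2 family oxidise drugs, odorants and steroids and are known from liver, nasal mucosa and airway. Cyp2g1 (XLOC_017320, chromosome 7, 26808927 to 26821197), an olfactory enzyme, had 21.2 FPKM in unstimulated WT stroma and 2.54 and 5.21 FPKM after RANKL, and 28.8 FPKM in unstimulated Jmjd6-/- stroma and 5.36 and 4.44 FPKM after RANKL. It was 5.46-fold lower in WT and 5.87-fold lower in Jmjd6-/- stroma. Cyp2a5 (XLOC_017321, chromosome 7, 26835339 to 26843264), which hydroxylates coumarin and nicotine, had 28.1, 6.60 and 10.7 FPKM in WT and 40.0, 7.41 and 8.25 FPKM in Jmjd6-/- stroma. Cyp2f2 (XLOC_017323, chromosome 7, 27119955 to 27133660), an enzyme of airway club cells, had 16.2, 5.51 and 5.78 FPKM in WT and 24.7, 4.40 and 6.75 FPKM in Jmjd6-/- stroma. In each of these genes the unstimulated level was higher in Jmjd6-/- than in WT stroma, and the RANKL libraries of the genotypes overlapped.

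The 3 genes lie within 324.7 kb of mm10 (chromosome 7, 26808927 to 27133660), where they were the only ones of 5 entries at 2 FPKM or more. The entries among them, Cyp2a12 and Cyp2a22, were at 0 or at most 0.0438 FPKM. The next expressed neighbours were Egln2 with 49.7, 38.6 and 49.1 FPKM in WT and 45.6, 45.0 and 44.7 FPKM in Jmjd6-/- stroma and Rab4b with 25.3, 24.4 and 35.1 FPKM in WT and 30.0, 31.2 and 28.5 FPKM in Jmjd6-/- stroma. Of 51 entries of the Cyp2 family in the table, 5 were at 2 FPKM or more, and 3 of these were halved. The other 2 were Cyp2j6 with 5.87, 4.80 and 4.47 FPKM in WT and 5.87, 5.29 and 5.11 FPKM in Jmjd6-/- stroma and Cyp2j9 with 3.09, 2.16 and 1.88 FPKM in WT and 3.88, 2.43 and 2.50 FPKM in Jmjd6-/- stroma, both lower in all 4 ratios but not halved. Cyp2a5 has a close copy in Cyp2a4, which is listed at 0 in every library, so fragments of the pair may have been assigned to Cyp2a5 alone.

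A pair of beta-defensins, antimicrobial peptides of surface epithelia, was halved in a cluster on chromosome 8 in which another defensin was higher with RANKL. Defb4 (XLOC_019188, chromosome 8, 19198704 to 19201547) had 6.14 FPKM in unstimulated WT stroma and 0.475 and 1.39 FPKM after RANKL, and 27.8 FPKM in unstimulated Jmjd6-/- stroma and 7.21 and 6.58 FPKM after RANKL. Defb14 (XLOC_019187, chromosome 8, 19194328 to 19195309), which ends 3.40 kb before Defb4, had 2.66, 0 and 0.930 FPKM in WT and 8.71, 2.64 and 2.38 FPKM in Jmjd6-/- stroma. Defb14 rests on an estimated 0 to 7 fragments in each library, so its halving is not resolved by counting. Its value of 0 in WT RANKL replicate 1 allows up to 3 fragments, or 1.96 FPKM. Defb4 rests on 60 and 134 fragments unstimulated but on 4 and 7 in the WT RANKL libraries.

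Defb6, the next gene of the cluster after Defb4, had 0.543, 25.0 and 51.2 FPKM in WT and 1.99, 113 and 108 FPKM in Jmjd6-/- stroma. Defb42, a defensin gene on another chromosome, had 0.335, 9.36 and 14.2 FPKM in WT and 0.793, 7.16 and 7.26 FPKM in Jmjd6-/- stroma. Both were chosen with their values known. Of 40 beta-defensin entries, 25 were at 0 in all libraries, and Defb4 and Defb14 were the only 2 at 2 FPKM or more in both unstimulated libraries. Beta-defensin genes are short and alike in sequence, so the assignment of fragments among them is uncertain. Angpt2 lies in the same 606 kb of chromosome 8, which holds 13 entries, 5 of them at 2 FPKM or more. Chromosome 8 carried 7 of the 41 genes, and its share of all genes was not counted. The halved genes Enpep and Egf on chromosome 3 spanned 494.7 kb. Elovl6, which lies between them, was higher with RANKL, at 12.9, 21.8 and 13.9 FPKM in WT and 13.1, 17.0 and 16.6 FPKM in Jmjd6-/- stroma.

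**Figure D3:**
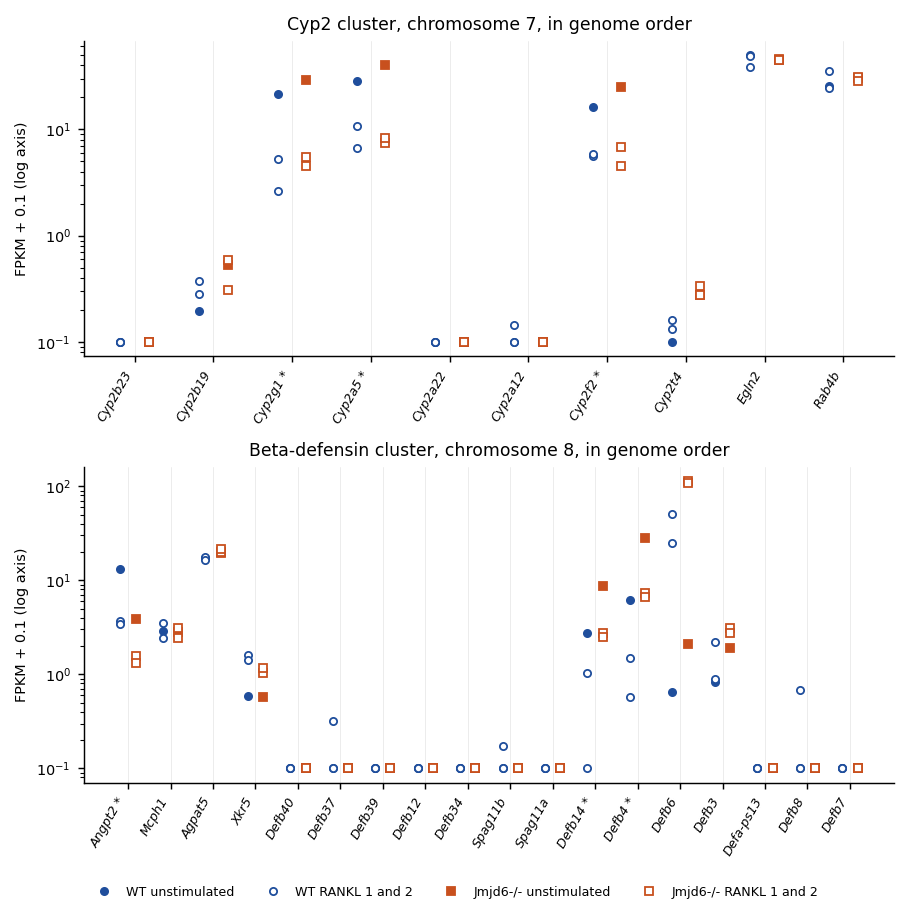
FPKM with 0.1 added (log axis) of the genes around the halved P450 genes and the halved defensins, in genome order and not to scale along the chromosome. Filled symbols are unstimulated and open symbols RANKL libraries, circles are WT and squares Jmjd6-/- stroma, and asterisks mark halved genes. The open symbols lie below the filled ones at Cyp2g1, Cyp2a5, Cyp2f2, Defb14 and Defb4 and above them at Defb6.

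Transporters and channels made up another share of the set. Atp6v1b1 (XLOC_016186, chromosome 6, 83743017 to 83758810) encodes the B1 subunit of the vacuolar proton pump, the form used by acid-secreting epithelium, and had 4.25 FPKM in unstimulated WT stroma and 0.753 and 0.585 FPKM after RANKL, and 3.42 FPKM in unstimulated Jmjd6-/- stroma and 0.412 and 0.431 FPKM after RANKL. It was 6.36-fold lower in WT and 8.11-fold lower in Jmjd6-/- stroma, and the 4 RANKL values did not exceed 0.753 FPKM. Its widely used counterpart Atp6v1b2 had 91.6, 86.8 and 92.4 FPKM in WT and 104, 119.5 and 119.6 FPKM in Jmjd6-/- stroma. Atp6v1b1 was on the osteoclast list, where it was the only halved gene of 8 at 2 FPKM or more (12.5%, against 0.377% of all genes). Osteoclasts are the cells that RANKL is best known to induce. The median log2 change of the 8 genes was -0.09 in WT and 0.14 in Jmjd6-/- stroma. In all 4 ratios 3 genes were higher (37.5%, against 18.9% of all genes) and 1 was lower (12.5%, against 35.4%). The summed level of all 15 listed genes was 151, 199 and 217 FPKM in WT and 134, 182 and 187 FPKM in Jmjd6-/- stroma. Mmp9, a gelatinase, had 13.8, 48.3 and 54.1 FPKM in WT and 10.3, 23.7 and 24.7 FPKM in Jmjd6-/- stroma, whereas Acp5, the acid phosphatase that marks osteoclasts, had 12.5, 7.73 and 11.3 FPKM in WT and 9.04, 9.16 and 14.6 FPKM in Jmjd6-/- stroma. Both were picked from the list after their values were seen.

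Svopl, a transporter-like protein related to synaptic vesicle proteins, had 8.80, 1.64 and 2.10 FPKM in WT and 6.33, 1.32 and 1.93 FPKM in Jmjd6-/- stroma. Slc16a11, of the monocarboxylate transporter family, had 22.5, 3.53 and 6.70 FPKM in WT and 14.8, 7.34 and 5.57 FPKM in Jmjd6-/- stroma and was among the 4 genes nearest to the limit of the rule. Slc38a3, a glutamine transporter, had 4.25, 1.85 and 2.02 FPKM in WT and 8.92, 1.98 and 2.25 FPKM in Jmjd6-/- stroma. These genes differed in which genotype had the deeper fall, Slc16a11 being 4.40-fold lower in WT and 2.29-fold in Jmjd6-/- stroma, and Slc38a3 2.20-fold and 4.22-fold. Each fall starts from 1 unstimulated library, so this difference between genotypes is a description without a replicate check. Kcne3, an accessory subunit of potassium channels, had 6.65, 3.30 and 2.91 FPKM in WT and 3.39, 1.42 and 1.51 FPKM in Jmjd6-/- stroma. Abcg3, a half-transporter of the ABC family, had 5.80, 1.60 and 1.68 FPKM in WT and 3.82, 1.25 and 1.42 FPKM in Jmjd6-/- stroma. Its relative Abcg1, which exports cholesterol, had 27.8, 11.5 and 14.6 FPKM in WT and 41.0, 19.4 and 19.0 FPKM in Jmjd6-/- stroma and missed the rule in WT RANKL replicate 2 only.

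Secreted proteins and peptidases held the 2 most abundant genes. Sepp1 (XLOC_006361, chromosome 15, 3270767 to 3280508) encodes selenoprotein P, which carries selenium between tissues, and had 166 FPKM in unstimulated WT stroma and 58.0 and 82.7 FPKM after RANKL, and 166 FPKM in unstimulated Jmjd6-/- stroma and 40.8 and 37.5 FPKM after RANKL. The unstimulated levels differed by less than 1 FPKM. With RANKL both Jmjd6-/- libraries were below both WT libraries, as in 18.3% of the 10879 genes. Enpep (XLOC_013137, chromosome 3, 129269177 to 129332749) encodes aminopeptidase A, known on thymic stroma as Ly51, the surface antigen used to tell cortical from medullary epithelium. It had 107, 49.9 and 50.1 FPKM in WT and 147, 73.3 and 73.4 FPKM in Jmjd6-/- stroma and was the gene nearest to the limit of the rule, with a largest ratio of 0.498. Replicates of Enpep were within 1 FPKM of each other in both genotypes. Sepp1 and Enpep both left the set with scaling by the median ratio and with the GC trend removed.

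Ly51 marks cortical epithelium, so the other cortical markers are given beside it. Of 16 markers on the list, which does not hold Enpep, 15 were at 2 FPKM or more, 12 of them (80.0%, against 35.4% of all genes) were lower in all 4 ratios, and 0 were halved. Their median log2 change was -0.44 in WT and -0.19 in Jmjd6-/- stroma. Psmb11, the thymoproteasome subunit, had 439.8, 243 and 299.6 FPKM in WT and 294, 254 and 266 FPKM in Jmjd6-/- stroma. Prss16, the thymus-specific serine protease, had 4345, 2506 and 2925 FPKM in WT and 3785, 2671 and 2713 FPKM in Jmjd6-/- stroma. Both were picked from the list after their values were seen. The Notch list behaved likewise in count, with 12 of 12 genes lower in all 4 ratios and 0 halved.

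Pcsk6, a proprotein convertase, had 13.3, 5.92 and 6.33 FPKM in WT and 11.4, 3.96 and 3.78 FPKM in Jmjd6-/- stroma. Adam28, a metalloprotease of the ADAM family, had 16.6, 7.98 and 6.73 FPKM in WT and 30.6, 11.7 and 11.9 FPKM in Jmjd6-/- stroma, and Adamts18, a secreted metalloprotease, had 7.59, 3.00 and 1.98 FPKM in WT and 6.26, 2.48 and 2.69 FPKM in Jmjd6-/- stroma. Egf, the growth factor, had 3.42, 1.36 and 1.50 FPKM in WT and 3.84, 1.38 and 1.36 FPKM in Jmjd6-/- stroma, and among the 7 listed ligands of its receptor it was the only one at 2 FPKM or more in both unstimulated libraries. Amy1, salivary amylase, had 5.68, 2.58 and 2.57 FPKM in WT and 6.76, 3.11 and 2.85 FPKM in Jmjd6-/- stroma, while the pancreatic amylase entries were at 0 or at most 0.0419 FPKM. Amylase genes are near-identical copies, so these fragments may not all be from Amy1. Ctla2a, an inhibitor of cysteine proteases, had 7.18, 2.08 and 2.40 FPKM in WT and 4.34, 0.990 and 1.10 FPKM in Jmjd6-/- stroma. Its close copy Ctla2b had 2.30, 1.22 and 1.44 FPKM in WT and 1.87, 0.261 and 0.472 FPKM in Jmjd6-/- stroma, and fragments of the 2 genes may not be fully separated.

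The remaining members were of mixed function. 8430408G22Rik (XLOC_016316, chromosome 6, 116633008 to 116673836), also called Depp1, is a gene that fasting and FOXO factors induce. It had 36.2 FPKM in unstimulated WT stroma and 5.63 and 7.51 FPKM after RANKL, and 52.3 FPKM in unstimulated Jmjd6-/- stroma and 12.0 and 14.1 FPKM after RANKL, and it was 5.51-fold lower in WT and 4.00-fold lower in Jmjd6-/- stroma. It shares its locus entry with Rassf4, which had 3.73, 2.24 and 1.53 FPKM in WT and 4.61, 1.74 and 1.87 FPKM in Jmjd6-/- stroma. Nrbp2, a pseudokinase, had 58.0, 23.2 and 24.1 FPKM in WT and 56.7, 23.1 and 23.3 FPKM in Jmjd6-/- stroma, and the 4 RANKL values spanned less than 1 FPKM. Ypel1, a small zinc-binding protein, had 13.7, 4.48 and 5.49 FPKM in WT and 13.5, 5.25 and 5.46 FPKM in Jmjd6-/- stroma, and its relative Ypel3 had 65.0, 30.6 and 37.8 FPKM in WT and 65.7, 32.9 and 32.7 FPKM in Jmjd6-/- stroma. Ypel1 shares a locus with Ppil2, which had 53.1, 47.1 and 51.7 FPKM in WT and 47.4, 45.9 and 46.2 FPKM in Jmjd6-/- stroma.

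Acaa1b, a peroxisomal thiolase of fatty acid oxidation, had 11.9, 2.61 and 5.83 FPKM in WT and 15.1, 5.54 and 7.15 FPKM in Jmjd6-/- stroma. Its close copy Acaa1a had 51.3, 38.6 and 53.7 FPKM in WT and 47.5, 45.1 and 45.0 FPKM in Jmjd6-/- stroma and was not halved. Myo5c, a myosin motor of secretory epithelium, had 5.49, 2.37 and 2.13 FPKM in WT and 8.32, 3.03 and 3.11 FPKM in Jmjd6-/- stroma, whereas Myo5a had 7.98, 7.74 and 5.83 FPKM in WT and 13.2, 11.9 and 11.4 FPKM in Jmjd6-/- stroma. Pdlim3, which binds actinin in muscle, had 2.77, 0.562 and 1.12 FPKM in WT and 4.54, 0.969 and 1.55 FPKM in Jmjd6-/- stroma. Kank4, a regulator of the actin cytoskeleton, had 2.26, 0.889 and 0.923 FPKM in WT and 4.29, 1.46 and 1.81 FPKM in Jmjd6-/- stroma. Of the genes without a role given here, 2300002M23Rik had 3.49, 0.536 and 0.867 FPKM in WT and 18.8, 7.39 and 7.19 FPKM in Jmjd6-/- stroma. Tmem132e, a membrane protein, had 2.89, 1.06 and 0.946 FPKM in WT and 2.99, 1.29 and 1.46 FPKM in Jmjd6-/- stroma. The RNA gene 4833422C13Rik had 5.37, 1.98 and 2.64 FPKM in WT and 5.82, 2.60 and 2.52 FPKM in Jmjd6-/- stroma and shares its locus with Ssbp2. The last member, 2410066E13Rik, also called Mturn, had 3.19, 1.39 and 0.957 FPKM in WT and 4.14, 1.80 and 1.86 FPKM in Jmjd6-/- stroma.

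Near the limit of the rule, the largest of the 4 ratios was 0.498 in Enpep, 0.497 in Sepp1, 0.496 in Kcne3 and 0.496 in Slc16a11. Just outside it were A330023F24Rik at 0.503, the integrin gene Itgal at 0.505, the transporter gene Abcc3 at 0.505 and Bin2 at 0.511. Itgal had 3.54, 1.49 and 1.79 FPKM in WT and 3.96, 1.52 and 1.30 FPKM in Jmjd6-/- stroma, so the rule separates genes of nearly the same response. At the other end, 4 genes had all 4 ratios below 0.25, namely Atp6v1b1, Asb2, Fpr1 and Cyp2g1. A limit of 0.333 would keep 8 genes, and a floor of 5 FPKM in place of 2 FPKM would keep 22.

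The gene lists touched few members. Of 29 lists 24 held no halved gene, 6 of the 41 genes were on a list, and 35 were on none. Lists without a halved gene included fibroblasts and thymic mesenchyme, mTECs, collagen, Wnt, BMP, FGF and IGF signals, circadian clock, and complement. In the lists of cholesterol synthesis (16 of 16 genes), the interferon response (14 of 14) and the cell cycle (23 of 24) nearly all genes were higher in all 4 ratios, against 18.9% of all genes.

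The genotypes were compared in 3 ways that the rule allows. First, the response of each gene was set beside that in the other genotype. The fall was deeper in Jmjd6-/- stroma in 22 genes and in WT stroma in the others, and in 21 genes the log2 changes of the genotypes were within 0.25 of each other. They differed by more than 0.75 in 5 genes. The widest gap was that of Timd4, with -2.09 in WT and -3.51 in Jmjd6-/- stroma, where the WT RANKL replicates were 0.714 and 2.32 FPKM. Because both responses were used to choose the genes, their likeness is a description. Each response also starts from 1 unstimulated library, so the gaps between genotypes have no replicate check. With each genotype taken alone, 60 genes (0.552%) passed in WT and 81 (0.745%) in Jmjd6-/- stroma.

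**Figure D4:**
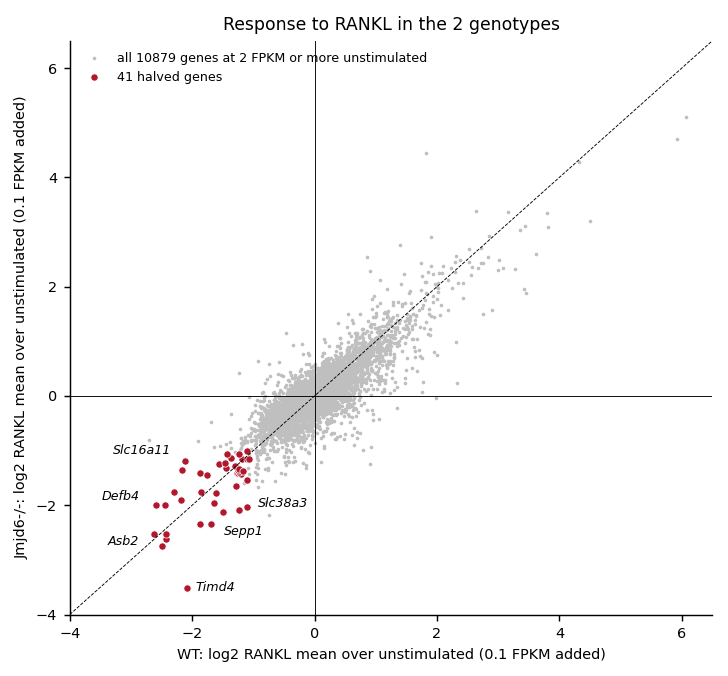
Log2 of the mean RANKL level over the unstimulated level (0.1 FPKM added) in WT (horizontal) and Jmjd6-/- stroma (vertical) for all 10879 genes at 2 FPKM or more unstimulated, with the 41 halved genes in red. The dashed line marks equal change. Red points occupy the lower left corner by the rule, with Timd4 farthest below the line and Slc16a11 above it.

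Second, without stimulation 1 Jmjd6-/- library was set against 1 WT library, with no replicate check. Of the 41 genes 22 were higher in the Jmjd6-/- library, and the share over all genes was not counted. The largest differences, on the log2 scale with 0.1 FPKM added, were -2.07 in Esm1, -1.76 in Cdh5 and -1.76 in Angpt2, and 2.40 in 2300002M23Rik, 2.16 in Defb4 and 1.67 in Defb14.

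Finally, the genotypes were tested under RANKL, 2 libraries against 2, which is not the contrast that chose the genes. By limma with Benjamini-Hochberg adjustment over 15894 genes, 2 of the 41 were lower in Jmjd6-/- stroma, where 1.82% of all genes tested were, and 2 were higher, where 0.516% were. At an unadjusted p under 0.05 there were 9 lower (background 12.3%) and 9 higher (background 6.52%). The libraries of the genotypes did not overlap in 12 genes with Jmjd6-/- lower and in 11 with Jmjd6-/- higher, where 18.3% and 27.9% of the 10879 genes did so, and they overlapped in 18. The median log2 difference was 0.06 over the 41 genes and 0.01 over all genes tested.

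Both genes that were lower are known from endothelium. Cdh5 had 3.78 and 4.20 FPKM in WT and 1.34 and 1.16 FPKM in Jmjd6-/- stroma with RANKL, a log2 difference of -1.60 (SE 0.19, adjusted p = 0.0282 from limma). Angpt2 had 3.59 and 3.36 FPKM against 1.45 and 1.23 FPKM, a log2 difference of -1.31 (SE 0.19, adjusted p = 0.0393). Esm1 had the largest difference of the set in this direction, -1.91, but did not pass (SE 0.33, adjusted p = 0.0556). The summed endothelial list was 33.6 and 48.0 FPKM in the WT and 15.8 and 16.4 FPKM in the Jmjd6-/- RANKL libraries, and its part in these differences was not tested. The summed list of fibroblast and thymic mesenchyme markers was 1151 and 1129 FPKM against 697 and 648 FPKM.

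The genes that were higher in Jmjd6-/- stroma were 2300002M23Rik and Defb4. 2300002M23Rik had 0.536 and 0.867 FPKM in WT and 7.39 and 7.19 FPKM in Jmjd6-/- stroma with RANKL, a log2 difference of 3.24 (SE 0.25, adjusted p = 0.0260 from limma). Defb4 had 0.475 and 1.39 FPKM against 7.21 and 6.58 FPKM, a log2 difference of 2.92 (SE 0.45, adjusted p = 0.0437). Defb14, beside it, differed by 3.02 with an SE of 1.04 and did not pass (adjusted p = 0.209). 8430408G22Rik differed by 0.99 (SE 0.18, adjusted p = 0.0612). The summed list of mTEC markers was 1698 and 2163 FPKM in the WT and 2649 and 2617 FPKM in the Jmjd6-/- RANKL libraries, and its part was not tested. Without the filter on low values 0 of the 41 genes passed in either direction. The number called also depended on which RANKL library was left out, a setting in which 1 group held a lone library. Over these settings the log2 difference was -1.69 to -1.50 in Cdh5 and -1.42 to -1.20 in Angpt2. It was 2.93 to 3.54 in 2300002M23Rik and 2.23 to 3.60 in Defb4. Angpt2 lost its call with scaling to equal totals, and Defb4 lost it with the GC trend removed.

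The P450 genes, by contrast, gave no call between genotypes. The log2 difference under RANKL was 0.41 (SE 0.34) in Cyp2g1, -0.10 (SE 0.24) in Cyp2a5 and -0.05 (SE 0.23) in Cyp2f2, with the smallest adjusted p at 0.601. Slc40a1 differed by 0.06 (SE 0.12, adjusted p = 0.826), Timd4 by -0.91 (SE 0.58, adjusted p = 0.490) and Cd5l by 0.52 (SE 0.35, adjusted p = 0.514 from limma). Sepp1 differed by -0.82 (SE 0.19, adjusted p = 0.0914 from limma) and Enpep by 0.55 (SE 0.10, adjusted p = 0.0603). In both the libraries of the genotypes did not overlap. Of the 10879 genes, 18.3% were likewise apart with Jmjd6-/- lower and 27.9% with Jmjd6-/- higher.

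**Figure D5:**
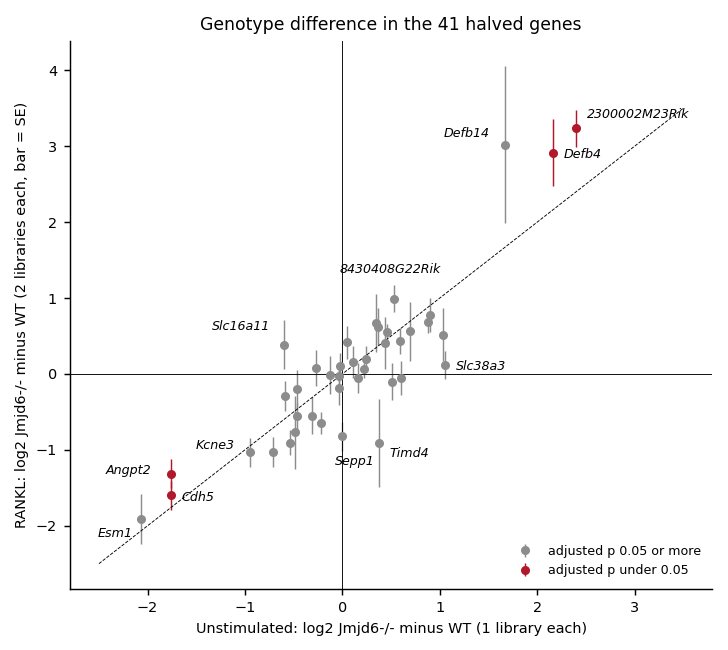
Log2 difference of Jmjd6-/- minus WT stroma (0.1 FPKM added) in the 41 halved genes without stimulation (horizontal, 1 library per genotype, no error) and with RANKL (vertical, 2 libraries per genotype, bars are the SE from limma). Red points passed an adjusted p of 0.05, and the dashed line marks equal differences. Angpt2 and Cdh5 lie at the lower left and Defb4 and 2300002M23Rik at the upper right.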

How the data were processed

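Poly-A RNA of 2-DG-treated fetal thymic stroma was sequenced by the authors in paired-end mode in 6 libraries. The deposited values were FPKM per gene, one column per library, made by the authors from reads mapped to mm10 with TopHat2 2.0.10 and quantified with Cufflinks 2.1.1, with correction for multi-reads and the setting for stranded libraries. A kit that keeps strand is not described, so 6 members that share a locus with another entry may carry its fragments. FPKM were used as deposited, without scaling. The correction spreads fragments of near-identical copies among them. Entry starts count from 0 and were raised by 1. The entry written 1-Mar, a symbol turned into a date, was matched by position to Marchf1. Genotype, stimulation and replicate came from the sample titles, as the treatment label gives RANKL for every sample.

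The members, gene lists and tests were chosen with earlier results of these data known. Genes named are the 8 with the largest fall, the 8 most abundant, halved list genes, genes called between genotypes, those nearest the limit and those in neighbourhoods within 500 kb. All other members are given by role, chosen after their values were seen. limma 3.58.1 in R 4.3.3 was fitted to log2 FPKM with 0.1 added, over the 15894 genes whose mean reached 0.1 FPKM, using 1 mean per condition and a variance trend. On data simulated for the comparison of genotypes under RANKL over 15894 genes, 80 of 100 genes changed by 1.0 on the log2 scale and 100 of 100 changed by 3.0 were recovered among 186 calls, 6 of them false. The simulated spread followed the level of a gene only, without differences between genes of the same level and without the GC trend. The share of false calls may therefore be higher in the real data. Depth was estimated from steps between FPKM under 0.15, with transcript lengths less 150 bp. Limits and fragment numbers cover counting error only. Promoters came from RefSeq, and 9 members had no entry (Cyp2g1, Defb4, Defb14, Angpt2, Slc38a3, Slc40a1, Nrbp2, Adam28 and Cdh5). Alternatives were other added constants, filters, scalings, limits and model terms and leaving out each RANKL library. Removing the GC trend and a fit without entries at 0 everywhere were added after seeing the data.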

Additional observations from a re-analysis of the deposited data

How the results depend on the processing

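The rule took 41 genes as reported, 58 with a floor of 1 FPKM, 22 with a floor of 5 FPKM and 8 with a limit of 0.333. Scaling to equal totals gave 45 genes, 39 of them shared, and scaling by the median ratio gave 34, all shared. With the latter Sepp1, Slc16a11, Acaa1b, 4833422C13Rik, Cdh5, Kcne3 and Enpep were lost. With each RANKL library left out the rule took 43 to 62 genes, most without WT RANKL replicate 2. Leaving out a library takes 1 ratio out of the rule, so it can add genes but lose none. With the GC trend removed it took 36, of which 33 were shared, and Sepp1, Slc40a1, Marchf1, Adam28, 4833422C13Rik, Amy1, Kcne3 and Enpep were lost.

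The number of genes called between genotypes under RANKL, 2 lower and 2 higher in Jmjd6-/- stroma, depended on the setting. Without the filter on low values 0 were lower and 0 higher, beside 1 lower and 1 higher of all 22513 genes. With entries at 0 in all libraries also left out, 0 of all 19264 genes were called in either direction. With the GC trend removed 4 were lower, beside 3.45% of all genes tested. The number higher was then still 2, but Defb4 had lost its call and 8430408G22Rik had gained one. With scaling to equal totals the number lower was still 2, but Angpt2 had lost its call and Esm1 had gained one. With an added constant of 0.01, a filter at a mean of 1 FPKM or no variance trend, 1 was higher (Defb4 was lost). With each RANKL library left out, 1 group held a lone library, which is assumed to vary like the others. The numbers called then rest on that assumption and are not given. The replicate number shared by the genotypes was not found to pair the libraries, as the difference of replicate 1 minus 2 correlated at r = -0.08 between genotypes across 12587 genes. With the replicate block, 7 were lower and 6 higher, beside 1077 lower (6.78%) and 382 higher (2.40%) of all genes, where 290 and 82 were called without it. Across 8 genes followed singly and all alternatives, 89 values stayed on their side of the threshold, 19 lost the call, 12 gained it and 0 changed sign. Depth limits Defb14, whose values rest on at most 7 fragments.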
